A study of Rattus norvegicus with 6 samples.

Results

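The miR-34 family was followed in small RNA libraries of rat sciatic nerve fibroblasts, in extracellular vesicles (EV, called exosomes in the study's design) and in the intracellular fraction. Extracellular vesicles are membrane-bound particles that cells release with RNA and protein inside. The members are all arms of rno-miR-34a, miR-34b, miR-34c and miR-449a that have a row in the count table. They are rno-miR-34a-5p, rno-miR-34a-3p, rno-miR-34b-5p, rno-miR-34b-3p, rno-miR-34c-5p, rno-miR-34c-3p and rno-miR-449a-5p, written from here without the prefix for rat. They make up 7 of the table's 1071 rows, where 552 rows carry known names and the other 519 are predictions of the authors. The EV group holds 3 libraries and the Intracellular group, the controls of the design, holds 3. All cells were wild type and untreated, and the labels put all libraries in batch 1. Neither the age of the animals nor any pooling is given, and whether replicates were separate cultures is not stated. Each p-value therefore rests on the spread among these libraries alone, which may be technical.

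Mature miRNAs guide Argonaute proteins to messenger RNAs, and bases 2 to 8 of the miRNA, the seed, set most of the pairing. In human and mouse cells miR-34a and the miR-34b and miR-34c pair, which come from separate transcripts, are switched on directly by p53, the transcription factor of the DNA damage response. They repress cell cycle and survival genes such as Cdk6, Ccne2, Met and Bcl2, and in human and mouse fibroblasts they rise with DNA damage and in senescence. miR-449a carries the same seed from another locus and is known from multiciliated epithelium.

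The sequences are shown because they decide both which targets members share and which members a short read can tell apart. They are RefSeq's (build GRCr8), and all 7 match the deposited sequences once U and T are treated alike. Capitals mark the seed, bases 2 to 8 from the 5′ end.
miR-34a-5p: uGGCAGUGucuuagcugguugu
miR-34c-5p: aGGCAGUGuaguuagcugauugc
miR-34b-5p: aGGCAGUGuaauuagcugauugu
miR-449a-5p: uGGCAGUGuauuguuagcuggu
miR-34b-3p: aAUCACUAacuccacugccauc
miR-34c-3p: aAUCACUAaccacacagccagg
miR-34a-3p: aAUCAGCAaguauacugcccua

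The 4 arms named 5p share the seed GGCAGUG, and the 3p arms of miR-34b and miR-34c share AUCACUA, while miR-34a-3p has a seed of its own. Counting from 1 at the 5′ end, miR-34b-5p differs from miR-34c-5p by G11A and C23U, where the first letter is the base of miR-34c-5p. The other 21 of 23 bases are the same. How the authors divided reads that fit several such arms is not given in the sources used here, so low counts of miR-34b-5p beside the abundant miR-34c-5p are uncertain. The 3p arms of the same pair differ at 5 of 22 positions. Set base by base from the 5′ end with no gap, miR-34a-5p (22 bases) and miR-34c-5p (23 bases) differ at 11 of 22 positions. Part of this is a shift of shared bases behind the seed, so an alignment with a gap would show fewer differences. Among the 659 rows that carry a sequence, 5 hold this seed at bases 2 to 8, the 4 members and the predicted novel65_mature (aGGCAGTGtgttgttagctgg, in the DNA letters of the deposited table). That row had 0 counts in each EV library, against 0, 1 and 2 in Intracellular replicates 1, 2 and 3. In RefSeq's gene order Mir34c and Mir34b are neighbours within Hoatz, between Layn and Btg4. Mir34a lies in a long noncoding RNA gene between H6pd and Gpr157, and Mir449a lies beside Mir449c and Gpx8.

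EV libraries held 81211 to 105578 counts and Intracellular libraries 1839047 to 8859302, so that 1 count stood for 9.47 to 12.3 CPM in EV and for 0.113 to 0.544 CPM in Intracellular libraries (CPM, counts per 1000000 counts of a library). Intracellular replicate 1 stood apart, where TMM (a scaling that assumes most rows do not change) gave it a factor of 0.557, and replicates 2 and 3 had 0.963 and 0.935. Of the fibroblast and mesenchymal markers (miR-143-3p, miR-145-5p, miR-199a-5p, miR-199a-3p, miR-214-3p and miR-21-5p), 6 of 6 were detected. They took 41.5% to 42.4% of counts in EV libraries and 46.5% to 49.0% in Intracellular libraries, and with TMM scaling 1 of them was called higher (miR-214-3p) and 4 lower, where 25.6% of all tested rows were called higher and 17.1% lower. With total counts 1 was called higher and 0 lower.

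The family took a larger share of the counts in EV than in the cells, and miR-34c-5p and miR-34a-5p supplied over 90% of it in both. All 7 rows together made up 0.207%, 0.170% and 0.162% of counts in EV replicates 1, 2 and 3 (168, 179 and 150 counts). In Intracellular replicates 1, 2 and 3 they made up 0.0510%, 0.0946% and 0.0722% (937, 3135 and 6398 counts). Every EV library lay above every Intracellular one, as it did in CPM for 41.8% of all tested rows. The mean share was 0.180% ± 0.0239 for EV against 0.0726% ± 0.0218 for Intracellular (SD, n = 3 each), a ratio of 2.47. With total counts, on which a share rests, the median tested row was itself higher in EV, by 0.55 on the log2 scale. Lower values of other RNA and more of the family cannot be told apart in a share. No test is given for this sum, since its rows were chosen together.

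miR-34c-5p, a guide arm of the p53-driven pair, was the most abundant member in both groups. It stood at 1379, 1079.8 and 1126 CPM in EV replicates 1, 2 and 3, from 112, 114 and 104 counts, against 346.4, 636.3 and 485.3 CPM in Intracellular replicates 1, 2 and 3. The groups did not overlap, and the lowest level was that of Intracellular replicate 1. With TMM scaling edgeR put the log2 fold change, EV over Intracellular, at 0.66 (SE 0.19, adjusted p = 0.0112), so it rose in EV. Among the 552 known miRNAs it held rank 65 in EV and rank 74 in Intracellular libraries by mean CPM.

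miR-34a-5p, the guide arm of the second p53-driven transcript, was next. It stood at 578.7, 464.1 and 368.2 CPM in EV replicates 1, 2 and 3, from 47, 49 and 34 counts, against 113.1, 243.0 and 192.6 CPM in Intracellular replicates 1, 2 and 3. Again no EV library overlapped an Intracellular one, and Intracellular replicate 1 was the lowest. It rose in EV by 0.75 on the log2 scale (SE 0.23, edgeR adjusted p = 0.0123). Its rank was 102 in EV and 133 in Intracellular libraries.

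**Figure D1:**
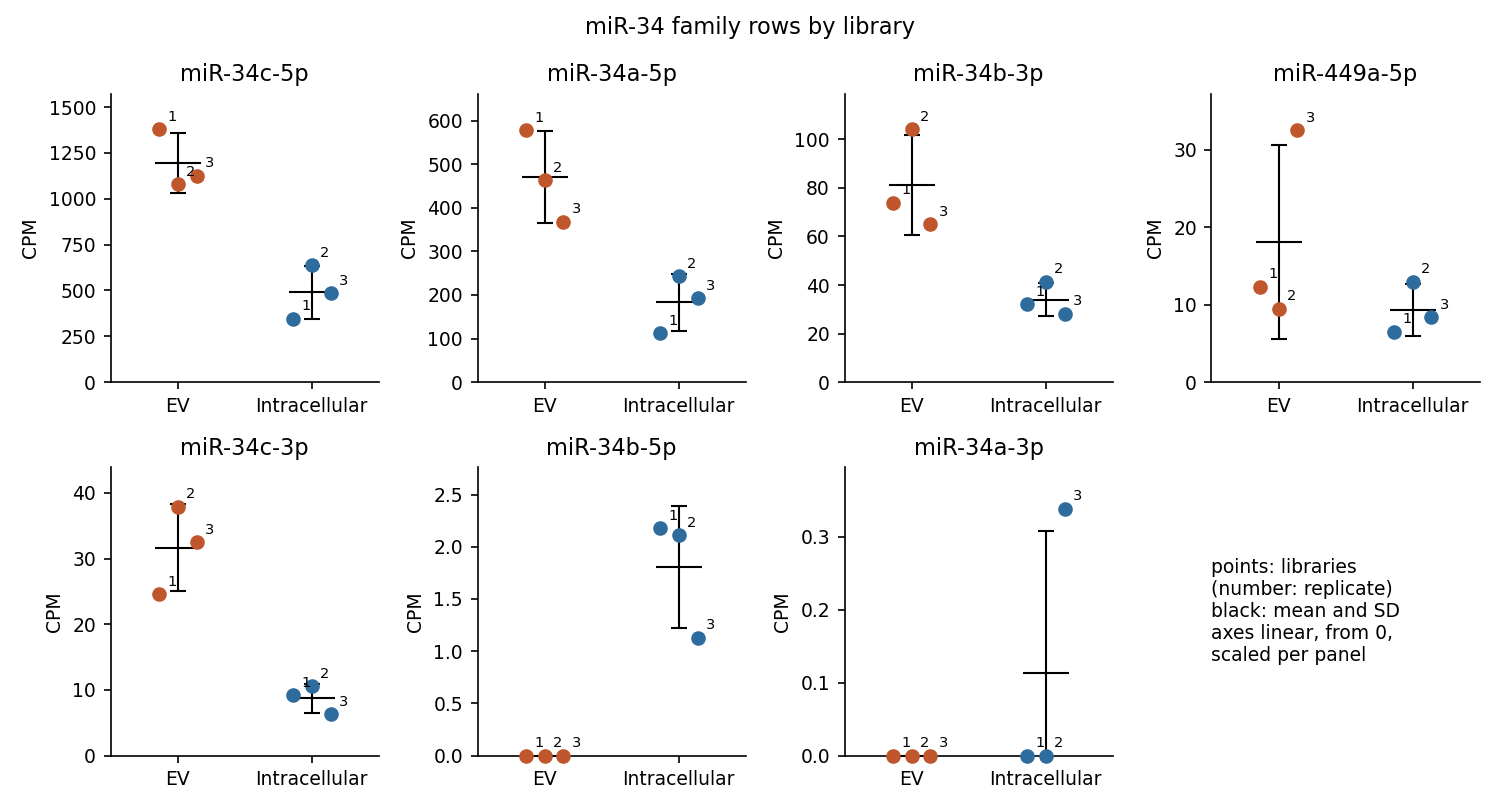
CPM of each member (linear axes from 0, scaled per panel) in the 3 EV and the 3 Intracellular libraries, with points for libraries numbered by replicate and black bars for the mean and SD. The EV points of miR-34c-5p (1079.8 to 1379 CPM) and miR-34a-5p (368.2 to 578.7 CPM) lie above all Intracellular points, while miR-34b-5p and miR-34a-3p are at 0 in EV.

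The 3p arm of miR-34b followed at a lower level. miR-34b-3p stood at 73.9, 104.2 and 65.0 CPM in EV replicates 1, 2 and 3, from 6, 11 and 6 counts, against 32.1, 41.4 and 28.2 CPM in Intracellular replicates 1, 2 and 3. The groups did not overlap, but the log2 fold change of 0.63 (SE 0.42) did not pass (edgeR adjusted p = 0.240). In this precursor the 3p arm had more counts, 446 over the Intracellular libraries against 21 of miR-34b-5p, whereas miR-34c had 7044 counts of its 5p and 108 of its 3p arm there. The counts of miR-34b-5p are uncertain beside miR-34c-5p, as said above, and so is this order of the miR-34b arms. miR-34a was more one-sided still, with 2719 counts of its 5p and 3 of its 3p arm in the Intracellular libraries.

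miR-34c-3p, the minor arm of miR-34c, had only 2, 4 and 3 counts in EV replicates 1, 2 and 3. These amount to 24.6, 37.9 and 32.5 CPM, against 9.24, 10.6 and 6.32 CPM in Intracellular replicates 1, 2 and 3. The values did not overlap, yet the exact 95% binomial intervals of the EV libraries reached down to 2.98, 10.3 and 6.70 CPM (counting error only), which is within or below the Intracellular levels. Its log2 fold change of 1.32 (SE 0.66) did not pass with TMM scaling (edgeR adjusted p = 0.120), and with total counts it was 1.90 (adjusted p = 0.0305). Over its 20 alternatives the adjusted p ranged from 0.0228 to 0.334. The row passed the low-count filter through its EV libraries, the group where it was higher, so these p-values are a description.

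miR-449a-5p, the member from outside the miR-34 loci, was rare and did not separate the groups. It had 1, 1 and 3 counts in EV replicates 1, 2 and 3, or 12.3, 9.47 and 32.5 CPM, against 6.53, 13.0 and 8.35 CPM in Intracellular replicates 1, 2 and 3. The log2 fold change was 0.37 (SE 0.75, edgeR adjusted p = 0.725), and it was -0.48 without EV replicate 3, which held 3 of its 5 EV counts. Of the epithelial and multiciliated markers fixed beside it, miR-200a-3p, miR-200b-3p, miR-200c-3p, miR-141-3p and miR-429 had 0 counts in every EV library and 1, 11, 6, 4 and 1 counts in all over the Intracellular ones. Intracellular means of these rows were at most 0.746 CPM, where 1 EV count stood for at least 9.47 CPM. Their 0 counts in EV thus cannot show a lower level. miR-203a-3p, an epidermal miRNA, was not tested and had 6 counts over the EV libraries and 49 over the Intracellular ones. In CPM it averaged 23.1 ± 20.2 in EV, against 3.19 ± 0.579 in Intracellular libraries (SD, n = 3 each). The 7 rows of this list, miR-449a-5p included, summed to between 9.47 and 65.0 CPM in EV libraries and between 10.3 and 17.2 CPM in Intracellular libraries.

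The remaining arms were below the filter and were not tested. miR-34b-5p had 0 counts in each EV library, against 4, 7 and 10 counts in Intracellular replicates 1, 2 and 3 (2.18, 2.11 and 1.13 CPM). At the pooled Intracellular share the EV libraries together would hold 0.418 counts of it. At its Intracellular proportion to miR-34b-3p (4.71%) they would hold 1.08, so a lower share of it in EV was not detectable at this depth. A count of 0 over the 3 EV libraries allows up to 10.7 CPM (3 counts), above its Intracellular level. miR-34a-3p, the other arm at 0 in EV, had 3 counts in Intracellular replicate 3 and 0 in replicates 1 and 2.

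Within each group miR-34c-5p stood highest, then miR-34a-5p, then miR-34b-3p, and these 3 did not overlap in CPM across the libraries of a group. Below them miR-34c-3p and miR-449a-5p overlapped with each other in both groups. CPM counts whole miRNAs, here of 22 or 23 bases, so length plays little part, but ligation favours some sequences over others and levels of different miRNAs are not exact molar amounts.

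Of the 7 rows, 5 passed the filter, and 2 of these (miR-34c-5p and miR-34a-5p) were called higher and 0 lower at an adjusted p under 0.05. Over all 328 tested rows 25.6% were called higher and 17.1% lower, so 2 of 5 is not far from the background. In CPM, 4 of 5 lay higher in every EV library than in any Intracellular library, where 41.8% of all tested rows did and 3.66% lay lower throughout. A row can pass the filter through its EV libraries alone, as miR-34c-3p did, so these counts are a description. The median log2 fold change was 0.66 over the 5 tested members and -0.06 over all tested rows.

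With total counts in place of TMM the median over all tested rows was 0.55, a shift of 0.61, and 32.6% of rows were called higher and 0.915% lower. The members' log2 fold changes became 1.36 for miR-34a-5p, 1.29 for miR-34c-5p, 1.27 for miR-34b-3p, 1.90 for miR-34c-3p and 0.94 for miR-449a-5p. Of these miR-34a-5p (edgeR adjusted p = 0.00481), miR-34c-5p (0.00264) and miR-34c-3p (0.0305) were called. miR-34c-3p had passed the filter through its EV libraries, where it was higher, so its call is a description. Relative to the median of all tested rows miR-34a-5p lay 0.81 higher with TMM and 0.81 higher with total counts. miR-34c-5p lay 0.72 and 0.74 higher, miR-34b-3p 0.70 and 0.73, miR-34c-3p 1.39 and 1.35, and miR-449a-5p 0.43 and 0.39 in the same order. The scalings differ only by a factor per library, so such pairs are close by construction and are no check of the scaling.

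**Figure D2:**
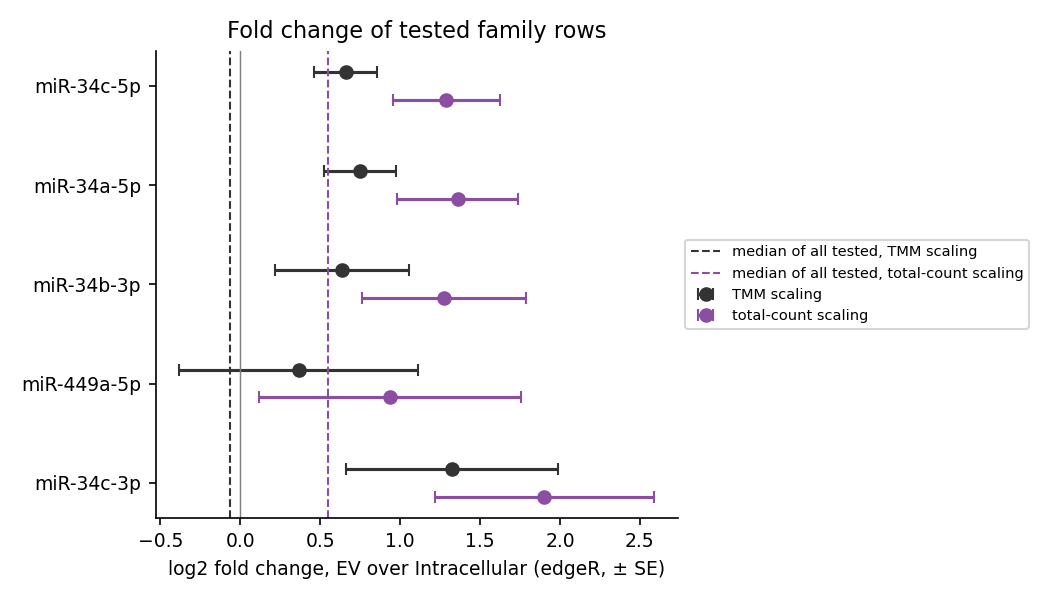
Log2 fold change of EV over Intracellular (x axis, edgeR, bars for SE) for the 5 tested members, with TMM scaling in black and total-count scaling in purple. The dashed lines mark the medians of all tested rows, -0.06 and 0.55, and the points of each scaling lie to the right of their own line.

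Both calls depended on single libraries and settings. Without EV replicate 1 neither was called with the filter applied again (edgeR adjusted p = 0.0994 for miR-34a-5p and 0.0809 for miR-34c-5p) nor with the tested rows kept (0.0670 and 0.0563), and without EV replicate 3 miR-34c-5p was not called with the filter applied again (0.0549). They were also not called with upper-quartile scaling (0.0776 and 0.103) or with no filter (0.0521 and 0.0594). Without Intracellular replicate 1, the library that stood apart, the log2 fold changes were 0.79 and 0.77 (adjusted p = 0.00693 and 0.00242). Over 23 alternatives the adjusted p ranged from 0.00403 to 0.0994 for miR-34a-5p and from 0.00216 to 0.103 for miR-34c-5p.

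**Figure D3:**
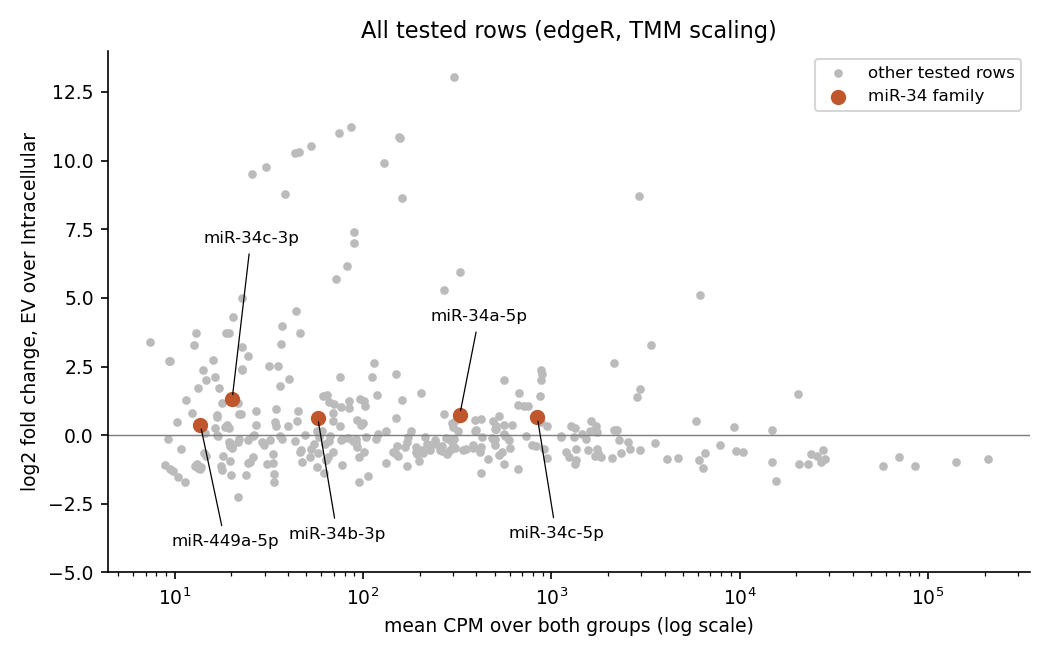
Log2 fold change of EV over Intracellular with TMM scaling (y axis) against mean CPM over both groups (x axis, log scale) for all 328 tested rows, members in orange. The members lie at 0.37 to 1.32 and many other rows lie well above them.

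Proportions between members do not depend on how libraries are scaled. Of the family's counts, miR-34c-5p took 66.6% ± 2.82 in EV, against 67.5% ± 0.443 in Intracellular libraries (SD, n = 3 each). miR-34a-5p took 26.0% ± 2.91 in EV, against 24.8% ± 2.35 in Intracellular libraries. Together they made up 91.1% to 94.6% of the family's counts in EV libraries and 90.2% to 93.9% in Intracellular libraries. miR-34b-3p took 4.57% ± 1.38 in EV, against 4.86% ± 1.27 in Intracellular libraries, and the remaining rows took under 3% each.

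**Figure D4:**
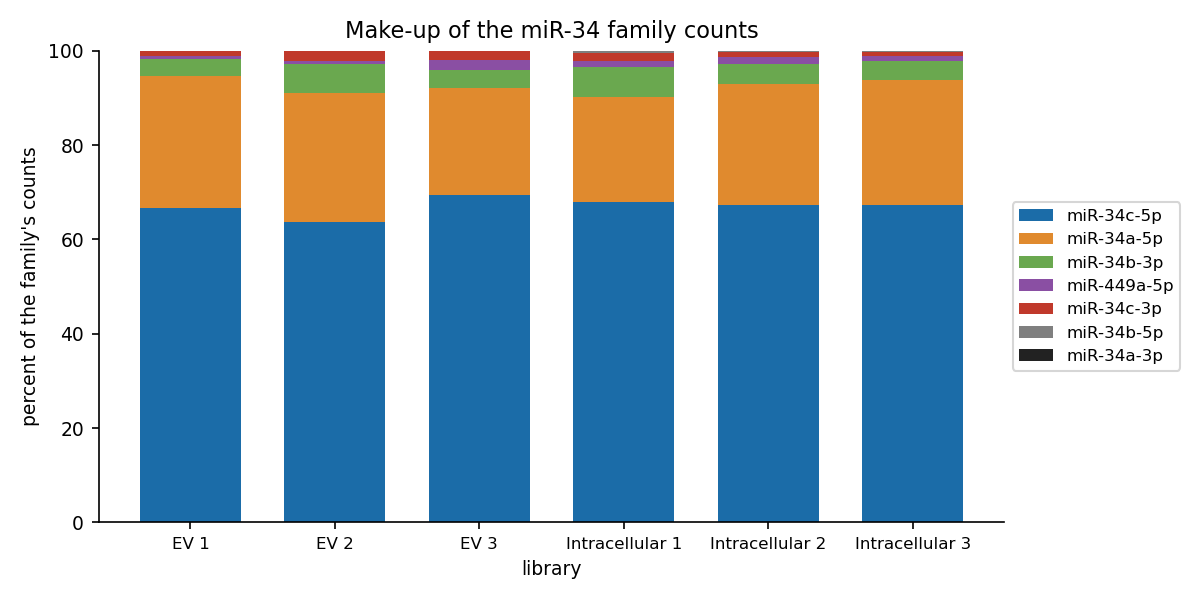
Percent of the family's counts (y axis, from 0 to 100) taken by each member in each library (bars, EV left and Intracellular right). miR-34c-5p takes 63.7% to 69.3% in EV libraries and 67.2% to 68.0% in Intracellular libraries.

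The guide arms of the separately transcribed miR-34a and miR-34c did not differ in proportion beyond the spread. The log2 ratio of miR-34a-5p to miR-34c-5p was -1.24, -1.20 and -1.58 in EV replicates 1, 2 and 3, against -1.61, -1.39 and -1.33 in Intracellular replicates 1, 2 and 3. The values overlapped, and the difference of 0.10 was smaller than the SD of either group (0.21 in EV and 0.15 in Intracellular libraries; 2-sided exact permutation p = 0.5, 0.6 adjusted over 3 ratios). Pooled over libraries, miR-34a-5p came to 39.4% of miR-34c-5p in EV and to 38.6% in Intracellular libraries. Such a p does not show that the ratios were equal, and 3 against 3 libraries cannot give one below 0.1.

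Within the miR-34b and miR-34c pair, the log2 ratio of miR-34b-3p to miR-34c-5p averaged -3.73 ± 0.41 in EV, against -3.81 ± 0.36 in Intracellular libraries (SD, n = 3 each). The difference of 0.09 lay within the spread (2-sided exact permutation p = 0.6, 0.6 adjusted), and it was negative when 0.25 in place of 1 was added to each count (-0.033), and without EV replicate 2 (-0.15) or Intracellular replicate 3 (-0.05). The arm ratio of miR-34c, as log2 of 3p over 5p, was -5.24, -4.52 and -4.71 in EV replicates 1, 2 and 3, against -5.15, -5.87 and -6.24 in Intracellular replicates 1, 2 and 3. The libraries overlapped through EV replicate 1 and Intracellular replicate 1. The difference of 0.93 did not pass (2-sided exact permutation p = 0.2, 0.6 adjusted) and rests on 9 EV counts of the 3p arm, where 5.06 were expected at the Intracellular proportion. A prior count of 1 raises a ratio from so few counts, and with 0.25 the difference was 0.66. The arms of miR-34a and miR-34b could not be set against each other in EV, where one arm of each was at 0.

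**Figure D5:**
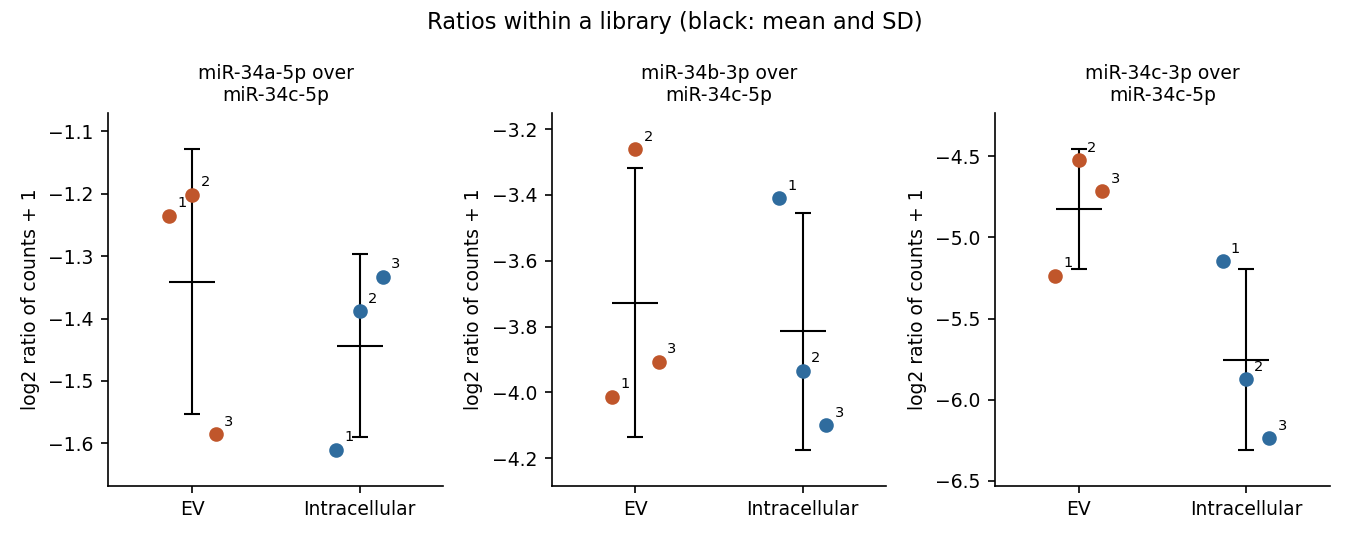
Log2 ratios within a library (y axis, counts plus 1) for miR-34a-5p over miR-34c-5p, miR-34b-3p over miR-34c-5p and miR-34c-3p over miR-34c-5p, with points for libraries numbered by replicate and black bars for the mean and SD. EV and Intracellular points overlap in all 3 panels.

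The profiles most like each tested member were found among 285 known tested miRNAs outside the family, by the root mean square difference of log2 CPM over the 6 libraries after each row was centred on its mean. These profiles hold the difference between the groups, so a neighbour's fold change near that of its member follows from the choice. The neighbours' fold changes and adjusted p are thus a description. miR-22-5p was closest both to miR-34c-5p (0.11) and to miR-34a-5p (0.18), where the median over all 285 was 0.66 and 0.71. It rose in EV, to 748.6 ± 38.9 CPM, against 302.2 ± 93.6 CPM in Intracellular libraries (log2 fold change 0.70, edgeR adjusted p = 0.00958). The difference between miR-34a-5p and miR-34c-5p themselves was 0.16.

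miR-34c-5p was next closest to miR-125b-1-3p (0.13) and miR-27a-3p (0.15), which rose by 0.49 (edgeR adjusted p = 0.0481) and 0.51 (0.0417) on the log2 scale. miR-34a-5p was next closest to miR-125b-2-3p (0.20), which rose by 0.76 (adjusted p = 0.0155), and miR-186-5p (0.21), at 0.35 (0.142). The neighbours of miR-34b-3p were miR-7a-5p (0.19), miR-134-5p (0.21) and miR-361-5p (0.22), with log2 fold changes of 0.55, 0.51 and 0.81 that did not pass (edgeR adjusted p = 0.0783, 0.0738 and 0.0751). Those of miR-34c-3p were miR-543-3p (0.30), miR-7a-5p (0.34) and miR-296-3p (0.39). miR-543-3p rose by 1.41 and miR-296-3p by 1.07 (edgeR adjusted p = 0.0236 and 0.00876). For miR-449a-5p, with 5 EV counts, the closest were the joined row of let-7a-1-3p and let-7c-2-3p, miR-532-3p and miR-181c-5p, at 0.38, 0.38 and 0.39, and none was called (edgeR adjusted p = 0.653, 0.787 and 0.984). Each library was left out in a pair of fits, with the filter applied again and with the tested rows kept, and a call counts as lost when either fit did not make it. By this rule miR-27a-3p (called in 2 of 12 fits) and miR-125b-1-3p (4 of 12) lost the call without any one library other than Intracellular replicate 1. miR-543-3p (7 of 12) lost it without EV replicate 2 or 3, or Intracellular replicate 2 or 3. miR-125b-2-3p (9 of 12) lost it without EV replicate 1 or 2, and miR-296-3p (10 of 12) without EV replicate 2. Leaving out 1 library kept miR-22-5p among the 3 closest to miR-34c-5p in 6 of 6 cases and among the 3 closest to miR-34a-5p in 4 of 6. In some of these cases 0 of the 3 neighbours of miR-34a-5p or of miR-449a-5p stayed.

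Other miRNAs are tied to p53 in human and mouse cells. Of 11 miRNAs that p53 induces or helps to process, 7 were tested, and 0 were called higher and 1 lower, beside 25.6% higher and 17.1% lower over all tested rows, with a median log2 fold change of -0.33 (-0.06 over all tested rows). With total counts 1 was called higher and 0 lower, with a median of 0.25 (0.55 over all tested rows). The lower call was miR-145-5p, a smooth muscle and mesenchymal miRNA, at 3024 ± 70.5 CPM in EV, against 2863 ± 908 CPM in Intracellular libraries. Its log2 fold change was -0.53 (edgeR adjusted p = 0.0249) with TMM and 0.082 (0.865) with total counts. miR-143-3p, from the same transcript as miR-145, had a value of -0.88 (edgeR adjusted p = 0.0541). miR-22-3p, the partner arm of miR-22-5p, was at 12145 ± 724 CPM in EV, against 6462 ± 1964 CPM in Intracellular libraries, with a log2 fold change of 0.31 (adjusted p = 0.258) and, with total counts, of 0.91 (0.00116). miR-16-5p, which restrains the cell cycle, was at -0.35 (edgeR adjusted p = 0.259). Leaving out EV replicate 1 or 2, or Intracellular replicate 2 or 3, ended the call of miR-145-5p. miR-192-5p, miR-194-5p and miR-107-3p were likewise not called.

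Of the miR-17-92 cluster, which promotes proliferation and is repressed by p53 in human cells, 5 of 6 miRNAs were tested, with 2 called higher and 0 lower, beside 25.6% and 17.1% of all tested rows, and a median log2 fold change of 0.33 (-0.06 over all). With total counts 3 were called higher and 0 lower, miR-20a-5p among them (0.92, edgeR adjusted p = 0.0456), with a median of 0.92 (0.55 over all). With TMM scaling miR-19b-3p rose on the log2 scale by 1.31 (edgeR adjusted p = 0.00237, 42 EV counts) and miR-92a-3p by 2.53 (0.00127, 17 EV counts), but miR-92a-3p was not called without EV replicate 1 (1.93, with adjusted p from 3.8e-05 to 0.0535 over 20 alternatives). miR-20a-5p (0.33, edgeR adjusted p = 0.240), miR-17-5p (-0.58, 0.0696) and miR-18a-5p (-1.22, 0.301, from 3 EV counts) were not called with that scaling. Of 4 miRNAs that target the p53 mRNA in human cells, 3 were tested and all 3 were called lower with TMM scaling, as were 17.1% of all tested rows, with a median of -0.66 (-0.06 over all). They were miR-125b-5p (-0.99, edgeR adjusted p = 0.00251), miR-30d-5p (-0.66, 0.0112) and miR-25-3p (-0.53, 0.0265). With total counts 0 of these were called. By the same rule as above, miR-30d-5p and miR-25-3p each lost the call without EV replicate 1 or 2, or Intracellular replicate 2 or 3, and were called in 6 of 12 and 5 of 12 such fits.

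Summed over each list, the markers of liver and red blood cells separated the same libraries, and those of leukocytes, glia and neurons overlapped. The fibroblast and mesenchymal markers given above separated them too, with lower sums in EV. Of single tested rows, 41.8% lay higher in every EV library than in any Intracellular one, and 3.66% lay lower throughout. The liver miRNA miR-122-5p averaged 12119 ± 1398 CPM in EV, against 194.7 ± 130 CPM (SD, n = 3 each) in Intracellular libraries. The 3 erythroid miRNAs (miR-451-5p, miR-486 and miR-144-3p) summed to between 151.5 and 221.6 CPM in EV and between 2.26 and 5.98 CPM in Intracellular libraries. Of these miR-144-3p had 0 counts in EV and 2 over the Intracellular libraries. The 4 leukocyte miRNAs summed to between 18.9 and 32.5 CPM in EV and between 11.4 and 37.1 CPM in Intracellular libraries. miR-142-3p averaged 14.5 CPM in EV (4 counts), against 20.8 CPM in Intracellular libraries. miR-150-5p averaged 10.8 CPM in EV (3 counts), against 3.19 CPM. miR-223-3p and miR-142-5p were at 0 in EV. Their Intracellular means of 0.541 and 0.527 CPM were below the value of 1 EV count, so these zeros cannot show a lower level. Of the myelinating glia miRNAs, miR-338-3p and miR-219a-5p summed to between 0 and 47.4 CPM in EV and between 8.16 and 20.1 CPM in Intracellular libraries. Of the neuronal list, miR-9a-5p, miR-128-3p and miR-138-5p summed to between 2197 and 2599 CPM in EV and between 1580.2 and 3279 CPM in Intracellular libraries. miR-124-3p had no row. With TMM scaling miR-138-5p was called higher (log2 fold change 3.28, edgeR adjusted p = 0.00237, 7 EV counts). miR-9a-5p (-0.89, 0.00430) and miR-128-3p (-0.62, 0.0154) were called lower. Over all tested rows 25.6% were called higher and 17.1% lower. With total counts 1 of this list was called higher and 0 lower. In bulk RNA of the Intracellular libraries, fewer cells of a type and less RNA per cell cannot be told apart. The EV libraries are of vesicles, so their levels do not count cells. The part of RNA from other cells in the level of the miR-34 family in EV was not tested.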

How the data were processed

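Small RNA was sequenced from 3 EV and 3 Intracellular samples. Per the labels' protocols, adapters were joined to both RNA ends before reverse transcription, PCR and size selection on a gel. They name no molecular identifiers, so the intervals and floors here are of counting error alone. The submitters' processing notes list cutadapt and the build Rnor_6.0, and the sources used here do not name an aligner, miRNA database or counting program. RefSeq's tables are of build GRCr8, so no coordinates are given. The authors deposited whole-number counts for each mature miRNA and a table of TPM. The deposited TPM equals the counts divided by their library total times 1000000, with no term for length.

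Tests on counts used edgeR 4.0.16 in R 4.3.3 (quasi-likelihood, 2-sided, robust), after TMM scaling and a low-count filter. The filter (filterByExpr) took a total of 15 counts and a minimum count of 10, turned into a CPM cutoff at the median library size. The shallow EV libraries meet this cutoff with far fewer than 10 counts. miR-34c-3p, for one, was tested with 2, 4 and 3 counts in EV replicates 1, 2 and 3. Benjamini-Hochberg adjustment ran over all tested rows, with a threshold of 0.05, and standard errors come from the F statistic. The procedure was run on simulated counts, drawn for both groups from a shared profile with raised and lowered rows alike. That run does not test the choice of scaling. Ratios within a library used a prior count of 1 and 2-sided exact permutation tests (scipy 1.17.1), and were left out where an arm was at 0 in all EV libraries. Likeness used TMM-scaled log2 CPM with a prior count of 2. Alternatives were other scalings and filters, DESeq2 1.42.0, limma 3.58.1 (voom, and log2(TPM + 1) and log2(TPM + 0.1)), known miRNAs alone, a replicate block and each library left out.

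The text names all members, the called members and the 4 most abundant of each list, and the 3 nearest profiles of each tested member. Others are named to complete a list, and novel65_mature was found by its seed. Members and lists were chosen with earlier results of these data known.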

Additional observations from a re-analysis of the deposited data

How the results depend on the processing

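Direction held in every alternative for miR-34a-5p (log2 fold change 0.51 to 1.41, called in 19 of 23), miR-34c-5p (0.42 to 1.32, called in 18 of 23), miR-34b-3p (0.36 to 1.27, called in 2 of 20) and miR-34c-3p (0.99 to 1.90, called in 5 of 20). miR-449a-5p was called in 0 of 20 and ranged from -0.48 to 0.73 with a library left out. Of the family, 2 rows were called higher, against 0 with upper-quartile scaling, 0 with no filter, 4 by limma on log2(TPM + 1), 4 by limma on log2(TPM + 0.1) and 0 to 3 with a library left out. Of all tested rows 84 were called higher, against 197 with no filter and 50 to 91 with a library left out (50 without Intracellular replicate 2 and 50 without Intracellular replicate 3). Called lower were 56, against 3 with total counts, 92 with upper-quartile scaling, 36 with at least 10 counts in 3 libraries, 4 and 2 by limma on log2(TPM + 1) and log2(TPM + 0.1), 37 among known miRNAs alone and 18 to 58 with a library left out (18 without EV replicate 1). The causes were not tested. The difference in the log2 ratio of miR-34b-3p to miR-34c-5p, 0.09, was -0.033 with a prior count of 0.25 and -0.15 to 0.29 with a library left out. The family's share differed by 0.0934 to 0.118 percentage points with a library left out.

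Log2 fold changes that turned positive with total counts were those of miR-145-5p (0.082), miR-16-5p (0.20), miR-25-3p (0.10), the joined let-7a-1-3p and let-7c-2-3p row (0.41), miR-532-3p (0.31) and miR-181c-5p (0.57). By limma on log2(TPM + 1) they were miR-145-5p (0.13), miR-16-5p (0.35), miR-17-5p (0.080), miR-25-3p (0.13), miR-30d-5p (0.0091), let-7a-1-3p and let-7c-2-3p (0.43), miR-532-3p (0.12) and miR-181c-5p (0.33). By limma on log2(TPM + 0.1) they were miR-145-5p (0.13), miR-16-5p (0.35), miR-17-5p (0.081), miR-25-3p (0.13), miR-30d-5p (0.0092), let-7a-1-3p and let-7c-2-3p (0.43), miR-532-3p (0.12) and miR-181c-5p (0.34). miR-181c-5p was also positive with at least 10 counts in 3 libraries (0.10), with DESeq2 (0.011) and among known miRNAs alone (0.095). With a library left out miR-181c-5p ranged from -1.15 to 0.39 and miR-532-3p from -1.39 to 0.15. Of the neighbours that were called, miR-22-5p was called in 21 of 23 alternatives, miR-296-3p in 21, miR-125b-2-3p in 18, miR-543-3p in 18, miR-125b-1-3p in 12 and miR-27a-3p in 10.

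Deviations of same-numbered libraries from their group means had correlations of 0.0336, 0.0886 and -0.0232. With so few libraries and EV counts, such values cannot decide whether the numbers pair the samples, which the labels do not state. With the replicate block 87 rows were called higher and 46 lower, the family's 2 calls were the same (miR-34a-5p 0.74, adjusted p = 0.00719, and miR-34c-5p 0.66, 0.00488), the call of miR-27a-3p was lost (0.51, adjusted p = 0.0924), miR-7a-5p (0.57, 0.0479) and miR-134-5p (0.52, 0.0365) were called, and no other call of a named miRNA changed. The ratios' differences within numbers gave exact sign-flip p-values of 0.75, 0.75 and 0.5, where 0.25 is the smallest possible. Depth in EV limits what can be said of rows with few counts there, miR-34c-3p, miR-449a-5p, miR-34b-5p and miR-34a-3p.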
